A study of Mus musculus with 7 samples.

Results

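The genes described here make sterols, fatty acids and the phospholipids built from them. They were taken as 32 listed genes, matched by symbol to the named probes of an Illumina MouseRef-8 v2 bead array. The list holds 12 enzymes of the sterol branch, 5 regulators of sterol synthesis, and 15 enzymes of the fatty acid and phospholipid branch, of which 11 act on fatty acids and 4 on glycerolipids. Of the 32, 30 had at least 1 named probe, with 46 probes in all, and 26 had a probe bright enough to test, with 36 probes. Across the array, 8537 of 16593 named genes could be tested. Fdft1 and Mvk had no named probe and were not analysed here. Idi1, Fasn, Gpam and Chka had probes that were too dim on most arrays and were not tested.

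RNA came from whole lungs of male mice aged 3 to 4 months, with no treatment. Their background mixed Balb/c, C57BL/6J and 129S6/SvEvTac. The knockout carried a claudin-18 allele, Cldn18F/F before recombination, from which a CMV-cre deleter had removed exons 2 and 3 in all tissues, and wild-type lungs were the controls. The labels speak of 4 replicates per genotype, but values of only 3 knockout arrays were at hand. Values were analysed for 3 knockout and 4 wild-type arrays of a single slide. Whether every array holds RNA of its own mouse is not stated, and p-values here therefore reflect array-to-array spread that may be technical. Knockout arrays sat at positions A, B and D and wild-type arrays at E to H, so position on the slide and genotype cannot be told apart. Since the lung was taken whole, fewer cells of a type and less RNA per cell cannot be told apart in any result below.

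Cells make sterols from acetyl-CoA through mevalonate, and the same acetyl-CoA feeds fatty acid synthesis by way of malonyl-CoA. Both branches are driven by the SREBP transcription factors, which are held in the endoplasmic reticulum by the escort protein SCAP and the INSIG proteins when sterols are plentiful. In lung, alveolar type 2 cells use these routes to make surfactant, whose main lipids are phosphatidylcholines.

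Promoters are shown for the members the results turn on, those past the threshold by any probe (Pmvk, Sc5d, Elovl6 and Elovl1), with that of Hmgcs1 because it holds the sterol regulatory element. Each runs 5′ to 3′ on the gene's strand from 250 bases before to 50 bases after an annotated start, from RefSeq on GRCm38.p6, and is the first window listed where a gene has 2. Capitals mark any of 4 motifs searched on both strands: TCACNCCAC, the sterol regulatory element bound by SREBPs; CCAAT, bound by NF-Y; CACGTG, the E-box; and GGGCGG, the GC box bound by Sp1.
Hmgcs1, chr13:119690101-119690400, strand plus: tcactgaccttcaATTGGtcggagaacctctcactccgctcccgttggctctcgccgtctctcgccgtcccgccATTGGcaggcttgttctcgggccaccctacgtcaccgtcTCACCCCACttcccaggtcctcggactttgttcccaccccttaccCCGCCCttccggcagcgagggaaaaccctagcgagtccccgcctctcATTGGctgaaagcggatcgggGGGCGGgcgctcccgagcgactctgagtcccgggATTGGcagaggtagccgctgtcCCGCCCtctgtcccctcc
Pmvk, chr3:89454291-89454590, strand plus: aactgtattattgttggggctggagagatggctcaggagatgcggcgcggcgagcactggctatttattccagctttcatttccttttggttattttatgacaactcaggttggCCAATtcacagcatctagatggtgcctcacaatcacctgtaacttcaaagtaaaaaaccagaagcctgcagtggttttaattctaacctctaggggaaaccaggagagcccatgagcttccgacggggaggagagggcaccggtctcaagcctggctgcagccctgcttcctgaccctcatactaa
Sc5d, chr9:42264251-42264550, strand minus: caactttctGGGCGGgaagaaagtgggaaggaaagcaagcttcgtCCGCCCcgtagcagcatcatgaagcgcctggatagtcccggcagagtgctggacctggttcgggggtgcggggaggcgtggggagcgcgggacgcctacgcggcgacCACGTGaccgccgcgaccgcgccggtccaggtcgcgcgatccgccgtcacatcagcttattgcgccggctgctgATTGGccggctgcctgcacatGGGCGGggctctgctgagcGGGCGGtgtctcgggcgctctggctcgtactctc
Elovl1, chr4:118427843-118428142, strand plus: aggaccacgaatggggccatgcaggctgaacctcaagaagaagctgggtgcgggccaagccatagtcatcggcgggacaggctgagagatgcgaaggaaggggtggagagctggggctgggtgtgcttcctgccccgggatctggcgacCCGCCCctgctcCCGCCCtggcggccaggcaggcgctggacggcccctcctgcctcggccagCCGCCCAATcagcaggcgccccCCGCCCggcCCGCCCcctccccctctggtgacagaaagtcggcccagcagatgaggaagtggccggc
Elovl6, chr3:129532136-129532435, strand plus: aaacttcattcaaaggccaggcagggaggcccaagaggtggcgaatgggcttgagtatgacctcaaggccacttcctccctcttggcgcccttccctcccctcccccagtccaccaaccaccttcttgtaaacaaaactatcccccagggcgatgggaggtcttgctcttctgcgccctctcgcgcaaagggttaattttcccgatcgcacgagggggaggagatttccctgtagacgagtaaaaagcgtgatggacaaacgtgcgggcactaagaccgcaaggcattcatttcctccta

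The Hmgcs1 window held 1 sterol regulatory element, starting at position -137 from the start site, with 4 CCAAT boxes and 3 GC boxes. The Sc5d window held an E-box at -98, a CCAAT box at -24 and 4 GC boxes, and the Pmvk window a CCAAT box at -136. The Elovl1 window held 5 GC boxes, 1 of which overlapped its CCAAT box, and the Elovl6 window held none of these letters. Promoter windows were found for 26 of the 32 members, 39 windows in all. Fads1, Fdft1, Fdps, Scd1, Scd2 and Sqle were not in the table. The sterol regulatory element stood in the windows of 2 members, Hmgcs1 and Pcyt1a, or 7.69% of member windows, against 1.24% of all 32851 windows. For the CCAAT box the shares were 53.8% and 37.4%, for the E-box 15.4% and 7.15%, and for the GC box 66.7% and 35.7%. These are letter matches, and binding was not measured.

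Most members did not pass the test, and the median change of either branch lay near 0. Pmvk, an enzyme of the mevalonate steps, was higher in the knockout. Sc5d, which introduces a double bond late in cholesterol synthesis, and Elovl6, which elongates long-chain fatty acids, were lower. Of the 26 members tested, 1 was higher and 2 were lower by limma at an adjusted p under 0.05, taken over all probes. That is 11.5% of the members, against 8.79% of all 8537 genes tested (3.68% higher and 5.11% lower), so the share lay near the background. At an unadjusted p under 0.05 the members numbered 9, against 25.7% of all genes. The median log2 change, knockout minus wild type, was 0.08 over the members and 0.0086 over all genes. The median size of the change regardless of sign was 0.32 over the members and 0.26 over all genes.

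**Figure D1:**
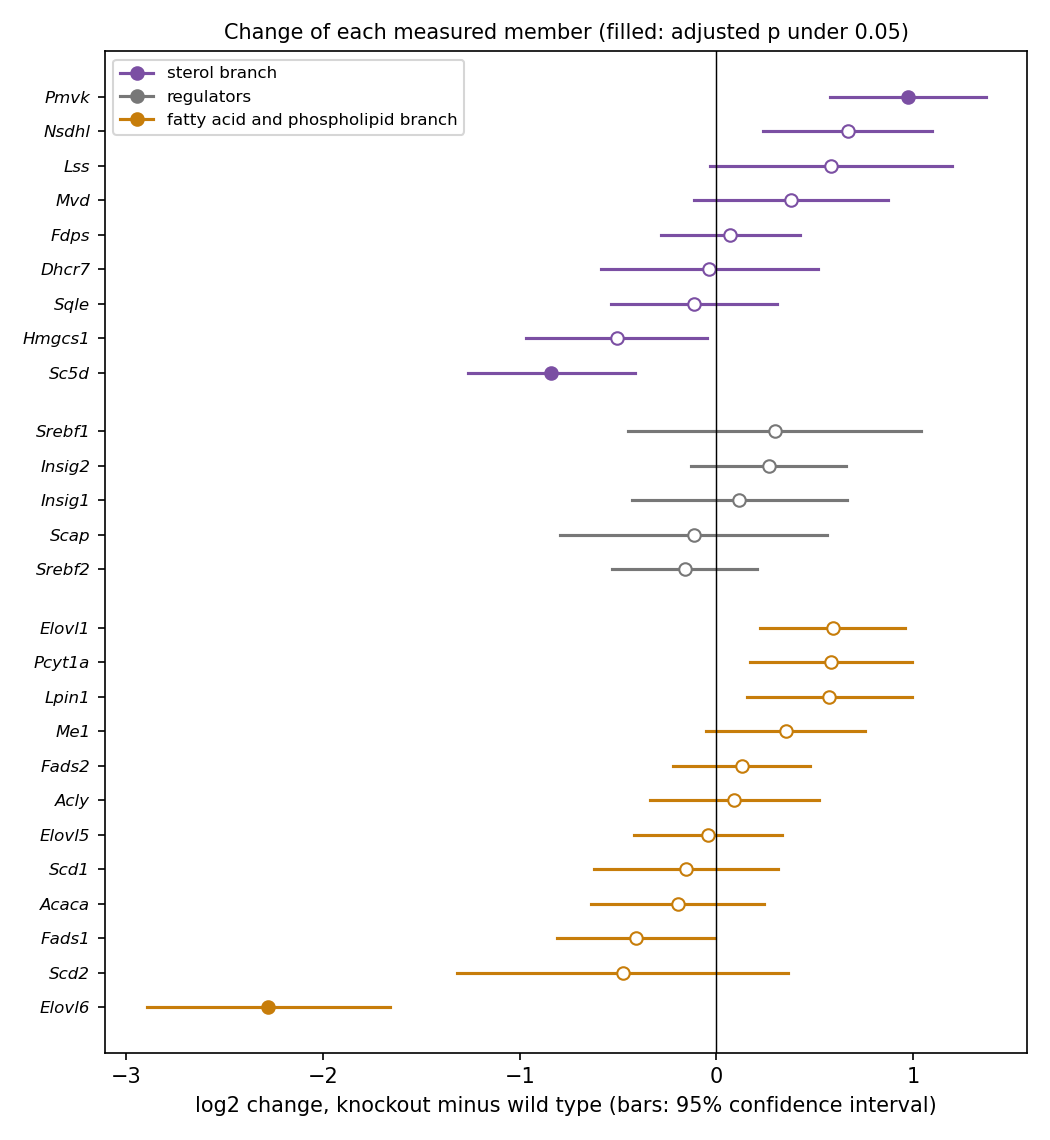
Log2 change of each of the 26 tested members, knockout minus wild type, by the brightest probe of each gene, with 95% confidence intervals (3 knockout and 4 wild-type arrays). Filled points passed an adjusted p of 0.05, which only Pmvk, Sc5d and Elovl6 did, and both branches spread to either side of 0. The point of Elovl6 is a fitted value against knockout levels not above background.

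The arrays themselves differed in brightness. Detected probes numbered 10291 to 11715 on the knockout and 11211 to 12376 on the wild-type arrays, and the median signal was 308 ± 45.6 (SD, n = 3) against 411 ± 58.6 (SD, n = 4). Their part in the results was not tested. The targeted transcript, Cldn18, was 13.1-fold lower in the knockout (log2 change -3.71, SE 0.19, adjusted p = 4.2e-05), though where its probe lies relative to the deleted exons is unknown. Surfactant genes Sftpc and Sftpd and the airway gene Scgb1a1 were detected on all 7 arrays.

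In the sterol branch, 9 of 12 enzymes could be tested, and 1 rose, 1 fell and 7 did not pass. The called share was 22.2%, against 8.79% of all genes tested. Pmvk encodes phosphomevalonate kinase, which adds the second phosphate to mevalonate. Its log2 levels were 9.70, 9.39 and 9.41 in the knockout and 8.27, 8.42, 8.67 and 8.74 in the wild type. All 3 knockout arrays stood above all 4 wild-type arrays. The log2 change was 0.97 (SE 0.18, adjusted p = 0.0112), a 1.96-fold rise. The signals before normalization overlapped, at 1193, 606 and 633 against 793, 600, 769 and 851, so this rise is relative to the rest of each array. With median scaling in place of quantile normalization, which moves the median change of all probes from 0.02 to -0.14, the log2 change of Pmvk was 0.75 and did not pass (adjusted p = 0.0728), and with the authors' values it was 0.51 (adjusted p = 0.0101).

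Sc5d encodes lathosterol 5-desaturase. Its log2 levels were 8.22, 7.62 and 7.99 in the knockout and 8.88, 8.89, 8.53 and 8.84 in the wild type. The groups did not overlap, and wild type 3 was the lowest of its genotype. The log2 change was -0.84 (SE 0.19, adjusted p = 0.0256), a 1.79-fold difference. The signals before normalization kept the groups apart as well, at 588, 325 and 404 against 1018, 723, 720 and 886. Since the wild-type arrays were brighter as a whole, separation in this direction was favoured and is no independent support. Leaving out knockout 2 gave Sc5d an adjusted p of 0.122, and leaving out knockout 3 gave 0.0694. Leaving out wild type 2 gave 0.0618, and leaving out wild type 4 gave 0.0547. Its log2 change was -0.34 with the authors' values (adjusted p = 0.0380) and -0.45 with no background correction (adjusted p = 0.0281).

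Nsdhl, whose product acts in removing methyl groups from the sterol ring, lay just outside the threshold. Its brightest probe stood at 9.03, 8.51 and 8.65 in the knockout and 8.27, 8.13, 8.11 and 7.74 in the wild type, with no overlap. The log2 change was 0.67 (SE 0.19, adjusted p = 0.0615). All 4 of its tested probes gave a positive change, from 0.27 to 0.67, and none passed, though the groups overlapped in the other 3. With only probes detected on all 7 arrays tested, Nsdhl passed (adjusted p = 0.0407).

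Hmgcs1, the synthase that makes HMG-CoA at the head of the pathway, was the member with the sterol regulatory element shown above. Its log2 levels were 13.56, 13.69 and 13.46 in the knockout and 14.55, 13.74, 13.94 and 14.07 in the wild type. The groups did not overlap, but knockout 2 lay close to wild type 2. The log2 change was -0.51 (95% interval -0.97 to -0.05, adjusted p = 0.158) and did not pass.

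The other enzymes of the branch gave values to either side of 0, with groups that overlapped. Lss, the synthase that closes the sterol rings, gave a log2 change of 0.58 (95% interval -0.03 to 1.20), and Mvd, the decarboxylase that follows Pmvk, gave 0.38 (-0.11 to 0.88). Fdps, which makes farnesyl diphosphate, gave 0.07 (-0.28 to 0.42). Squalene epoxidase, Sqle, gave -0.11 (-0.54 to 0.31) by its brighter probe and 0.11 by the other, and Dhcr7, of the last step to cholesterol, gave -0.04 (-0.59 to 0.52). These intervals leave room for changes of about the size seen in Nsdhl in Lss and Mvd, and do not show that any of the 5 was equal between genotypes. The sterol enzymes thus did not move together: Pmvk rose, Sc5d fell, and 5 of the 9 changes were positive.

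**Figure D2:**
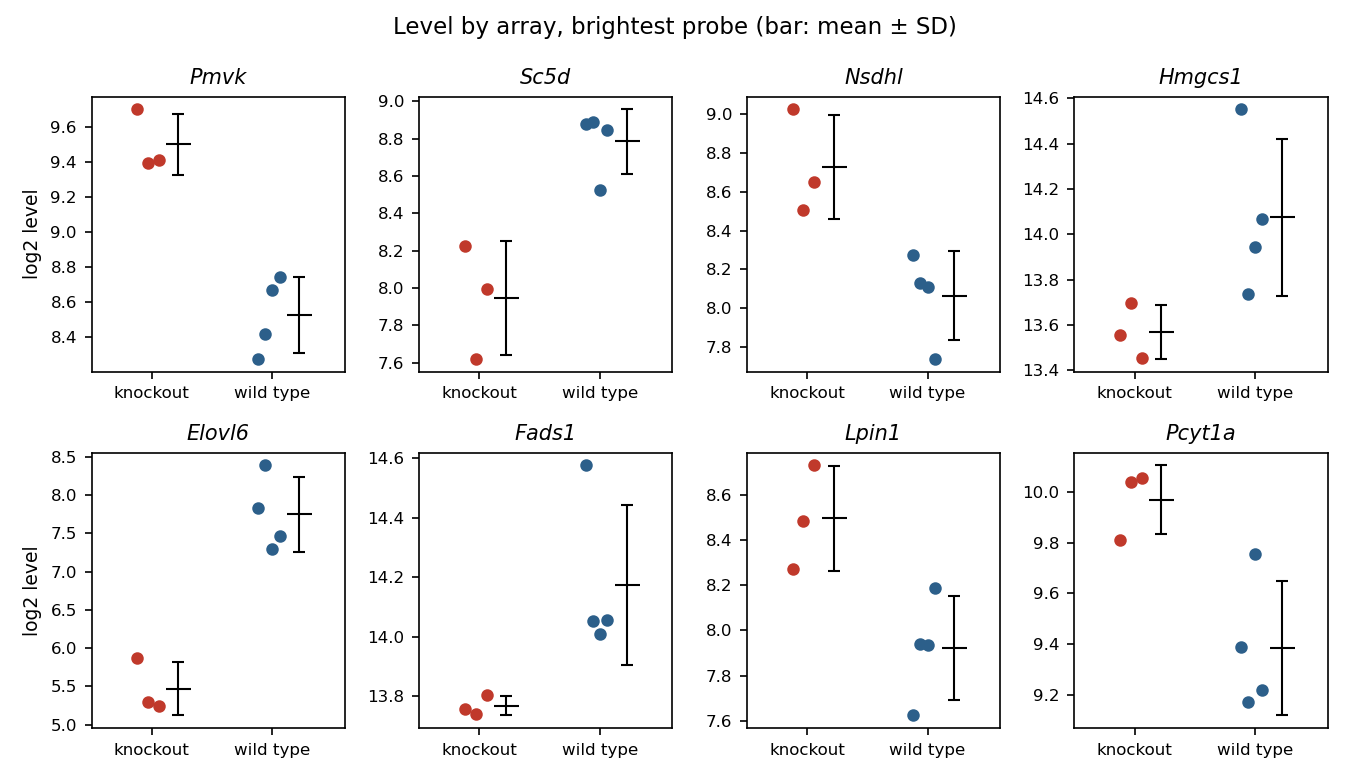
Normalized log2 level of 8 members on each of the 3 knockout and 4 wild-type arrays (brightest probe, a scale for each gene), with the mean and SD beside the points. All 8 were taken from the members whose groups do not overlap, which held for 38.5% of members and 26% of all genes tested. Only Pmvk, Sc5d and Elovl6 passed the test.

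Of the 5 regulators all were tested and none passed, and in all 5 the groups overlapped. At an unadjusted p under 0.05 their number was also 0. Srebf2, which favours sterol genes, had a log2 change of -0.16 (95% interval -0.53 to 0.21, adjusted p = 0.577). Srebf1, which favours fatty acid genes, gave 0.30 (-0.45 to 1.04, adjusted p = 0.613) by a probe that ran from 6.50 to 8.23 in the wild type and from 7.53 to 7.73 in the knockout. Wild type 1 was the highest and wild type 2, where the probe was not detected, the lowest of the 7 arrays.

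Scap gave -0.12 (-0.79 to 0.56). Insig1, itself a well-known SREBP target, gave 0.12 (-0.43 to 0.66) by its brightest probe and -0.31 and 0.05 by its other 2, and Insig2 gave 0.27 (-0.13 to 0.66) and -0.38. The probes of each gene thus disagreed in sign and none passed. Wild type 1 was the highest wild-type array by the main probe of each of the 5 regulators.

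In the fatty acid and phospholipid branch, 12 of 15 genes could be tested, and none rose, 1 fell and 11 did not pass by their brightest probes. The called share was 8.33%, against 8.79% of all genes tested. The gene that fell was Elovl6. Its log2 levels were 5.87, 5.30 and 5.24 in the knockout and 7.84, 8.39, 7.29 and 7.47 in the wild type. Its probe was detected on every wild-type array and on 0 of the 3 knockout arrays. It thus met the filter of 3 arrays through the wild type alone, which favours a lower call. The groups were well apart. Signals before normalization, where the wild-type arrays were brighter as a whole, were also apart, at 307, 203 and 252 against 675, 594, 455 and 574. The fitted log2 change was -2.28 (SE 0.28, adjusted p = 0.00242). Because the knockout levels were not above background, the difference is given as at least 1.6-fold lower, where each knockout level was first raised to that of the dimmest detected probe of its array. The fitted log2 change of Elovl6 depended on how dim signals were treated, at -0.52 with the authors' values (adjusted p = 0.0166), -0.79 with no background correction and -1.67 with an offset of 50.

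Elovl1, which elongates saturated and monounsaturated fatty acids to very long chains, gave positive changes. Its brightest probe stood at 13.36, 13.61 and 13.26 in the knockout and 12.84, 12.82, 12.99 and 12.61 in the wild type. The log2 change was 0.59 (SE 0.16, adjusted p = 0.0545), just outside the threshold. Of its 4 probes, ILMN_2723491 (0.99, adjusted p = 0.0384) and ILMN_2771824 (0.84, adjusted p = 0.0353) passed, and ILMN_1224780 (0.49, adjusted p = 0.122) did not, against 8.87% of all 11902 probes tested (3.97% higher and 4.91% lower). By all 4 probes the groups did not overlap, with the knockout higher. These probes read 1 gene on the same arrays, so they are not independent of each other. With the mean of all 4 probes Elovl1 gave 0.73 and passed (adjusted p = 0.0328), and its brightest probe passed with the authors' values (0.61, adjusted p = 0.0156). Elovl1 gained the call under 6 of 16 alternatives, counting the mean of all 4 probes as an alternative. The call of ILMN_2723491 was lost under 7 of 15 alternatives (adjusted p up to 0.154) and that of ILMN_2771824 under 9 of 15 (adjusted p up to 0.151). Before normalization the signals of the brightest probe overlapped, at 12744, 8237 and 6220 against 9595, 7021, 10348 and 7440.

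**Figure D3:**
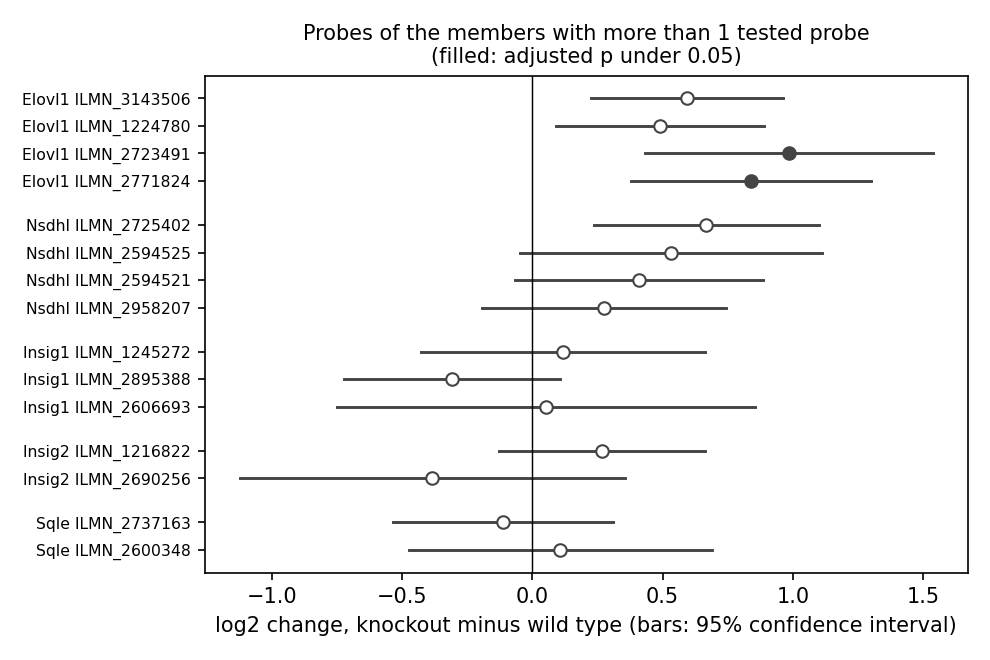
Log2 change, knockout minus wild type, with 95% confidence intervals, for each tested probe of the 5 members with more than 1 tested probe. All 4 probes of Elovl1 and of Nsdhl lie above 0, while the probes of Insig1, Insig2 and Sqle fall on both sides. Probes of 1 gene are read on the same arrays and are not independent.

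The third elongase among the members, Elovl5, which acts on polyunsaturated fatty acids, gave -0.04 (95% interval -0.42 to 0.33). Of the 3 member elongases tested, only Elovl6 passed the threshold by its brightest probe.

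Among the desaturases, Scd1, which makes oleate and palmitoleate, gave -0.15 (95% interval -0.62 to 0.31) with overlapping groups and signals from 18132 to 50460. Scd2, its close relative, gave -0.48 (-1.32 to 0.36) by a probe detected on 2 knockout arrays. The genes are closely related, and how far each probe reads both is unknown. Fads2, which starts the synthesis of polyunsaturated fatty acids, gave 0.13 (-0.22 to 0.48).

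Fads1, the other desaturase of that route, showed separate groups. Its log2 levels were 13.76, 13.74 and 13.80 in the knockout and 14.58, 14.05, 14.01 and 14.06 in the wild type. The knockout arrays lay close together and below all wild-type arrays, and wild type 1 stood above the other three. The log2 change was -0.41 (95% interval -0.81 to -0.01, adjusted p = 0.189) and did not pass.

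The enzymes that feed fatty acid synthesis gave values near 0 with overlapping groups, apart from Me1. Acly, which releases acetyl-CoA from citrate, gave 0.09 (95% interval -0.34 to 0.52), and Acaca, which makes malonyl-CoA, gave -0.20 (-0.64 to 0.24). Me1, the malic enzyme that supplies NADPH, gave 0.35 (-0.05 to 0.76, adjusted p = 0.253). Its normalized levels were higher on every knockout array than on any wild-type array, but its signals before normalization overlapped. The probe for Fasn, the synthase itself, was detected on 1 array, wild type 4, at a log2 level of 7.12, against 5.27 to 5.92 on the other 6 arrays. Those other levels are not above background and give no order.

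Both tested genes of phospholipid and glycerolipid synthesis gave positive changes that did not pass. Pcyt1a encodes the rate-limiting enzyme of phosphatidylcholine synthesis. Its knockout levels were 9.81, 10.04 and 10.05 and its wild-type levels 9.39, 9.17, 9.76 and 9.22, with a log2 change of 0.58 (SE 0.18, adjusted p = 0.0808). Lpin1 encodes a phosphatidate phosphatase that makes diacylglycerol. It stood at 8.27, 8.49 and 8.73 against 7.62, 7.94, 7.94 and 8.19, with a log2 change of 0.57 (SE 0.19, adjusted p = 0.0894). In both genes the groups did not overlap after normalization. Before it they did, at 1270, 854 and 846 against 1301, 817, 1353 and 1040 for Pcyt1a. For Lpin1 the signals were 599, 420 and 494 against 629, 507, 565 and 700. These rises are thus relative to the rest of each array. The other 2 probes of Lpin1 were detected on 0 arrays, and Gpam and Chka were each detected on 1 wild-type array.

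Counted by separation alone, the knockout lay above the wild type in 6 members (Pmvk, Nsdhl, Elovl1, Me1, Pcyt1a and Lpin1) and below it in 4 (Hmgcs1, Sc5d, Elovl6 and Fads1). That is 38.5% of the 26 members, against 26% of all genes tested. This count uses normalized levels. In signals before normalization only Sc5d and Elovl6 kept the groups apart, and the wild-type arrays were brighter as a whole.

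The branches were then set side by side. The median log2 change was 0.07 over the 9 sterol enzymes and 0.025 over the 12 genes of the fatty acid and phospholipid branch, against 0.0086 over all genes. Setting Elovl6 to its bound leaves that median as it is, since Elovl6 remains the lowest of the 12. For each array, each gene was centred on its mean over all 7 arrays and the branch averaged. The sterol mean was 0.20, -0.02 and 0.05 in the knockout and -0.02, -0.07, -0.07 and -0.06 in the wild type, and the groups overlapped, since knockout 2 lay below wild type 1. The fatty acid and phospholipid mean was 0.02, 0.01 and -0.20 against 0.10, 0.01, 0.08 and -0.02, again with overlap. The sterol mean minus the other averaged 0.13 ± 0.15 over knockout arrays (SD, n = 3). Over wild-type arrays it averaged -0.10 ± 0.047 (SD, n = 4), a difference of 0.23. By this measure the lowest knockout array, at -0.036, lay just above the highest wild-type array, at -0.043. Without Elovl6, a comparison added after the data were seen, that difference was 0.036 and the arrays overlapped. It was -0.021 when only probes detected on all 7 arrays were tested, which leaves out Elovl6 and Scd2. No p-value is given for these averages, because the members were chosen with results of these data known.

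**Figure D4:**
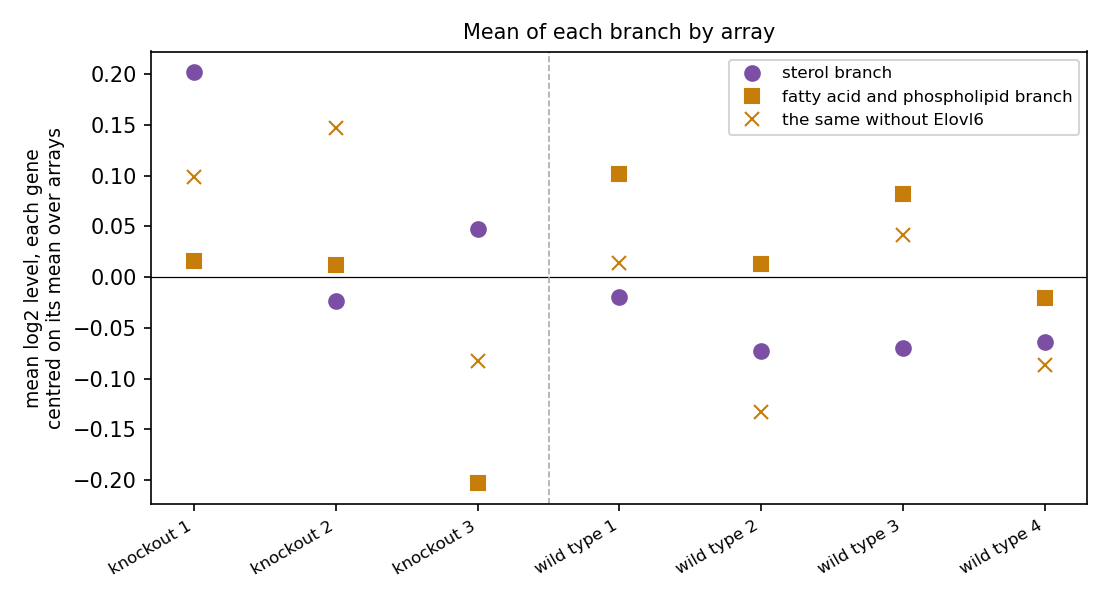
Mean log2 level of the 9 sterol enzymes and of the 12 fatty acid and phospholipid genes on each array, each gene centred on its mean over arrays (0), with the second branch also shown without Elovl6. The branch means lie between -0.20 and 0.20, and leaving out Elovl6 raises the knockout arrays and lowers the wild-type arrays.

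Within the wild type, wild type 1 was the highest of the 4 arrays in 13 of the 26 members, against 34.0% of all genes. It was highest in 3 of 9 sterol enzymes, 5 of 12 fatty acid and phospholipid genes and all 5 regulators. Of the knockout arrays, knockout 1 was the highest in 11 members, 6 of them sterol enzymes, against 34.4% of all genes.

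Other genes of these pathways were counted from lists. Of 5 further sterol synthesis genes tested none passed, with a median of 0.08, and 3 changes were positive and 2 negative. Of the 5, 1 had an unadjusted p under 0.05. This was Ebp, just outside the threshold at 0.57 (adjusted p = 0.0555 by limma). Cyp51, the lanosterol demethylase, gave 0.20. Of 8 genes of sterol uptake and transport, 1 rose. This was Npc2, which carries cholesterol out of lysosomes, at 13.43, 13.59 and 13.24 in the knockout against 12.32, 12.59, 12.90 and 12.96, with a log2 change of 0.73 (SE 0.20, adjusted p = 0.0485). The Npc2 call was lost under 9 of 16 alternatives, with adjusted p-values up to 0.187. The 1 called gene is 12.5% of this list, against 3.68% of all genes higher in the knockout. The sterol exporter Abcg1 (0.44, adjusted p = 0.139) and its regulator Nr1h3 (-0.08, adjusted p = 0.777) did not pass, and Abca1 was detected on 0 arrays. The other tested probe of Nr1h3 had the opposite sign (0.33, adjusted p = 0.403 by limma).

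Of 12 further fatty acid synthesis genes 1 rose, Acsl5, which activates long-chain fatty acids with coenzyme A. Its knockout levels were 15.43, 15.42 and 15.47 and its wild-type levels 15.07, 14.66, 14.68 and 14.93, a log2 change of 0.61 (SE 0.16, adjusted p = 0.0472). The Acsl5 call was lost under 8 of 16 alternatives. It makes up 8.33% of its list, against 3.68% of all genes higher in the knockout. Of 22 further glycerolipid and phospholipid genes none passed by limma, and 2 had an unadjusted p under 0.05. Lpcat1, which remodels surfactant phosphatidylcholine, gave 0.36 (adjusted p = 0.425).

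Genes that take up, store or burn fatty acids numbered 16, and 3 fell. Mgll, the lipase that releases fatty acids from monoglycerides, stood at 9.95, 9.77 and 10.33 in the knockout and 11.08, 10.87, 10.99 and 11.50 in the wild type, a log2 change of -1.09 (SE 0.21, adjusted p = 0.0129). Its other 2 probes passed as well, at -0.97 and -1.0. Slc27a3, an acyl-CoA synthetase of the fatty acid transport family, gave -1.73 (adjusted p = 0.0112), and Fabp5, a fatty acid binding protein, gave -1.83 (adjusted p = 0.0210). Only 1 knockout array detected either gene, while all 4 wild-type arrays did. Both genes thus met the filter by their wild-type arrays, which favours a lower call. These changes include levels not above background, and with the authors' values they were -0.49 and -0.55. In all 3 genes the groups did not overlap. The Mgll call was lost under 2 of 16 alternatives (adjusted p up to 0.0665). That of Fabp5 was lost under 2 of 15 (adjusted p up to 0.0691), and that of Slc27a3 under 0 of 15. Pparg, the nuclear receptor of lipid storage, gave 0.32 (adjusted p = 0.373). The 3 fallen genes are 18.8% of this list, against 5.11% of all genes lower in the knockout.

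Markers of cell types were counted beside these results. Over all genes tested, 3.68% were higher and 5.11% lower in the knockout. Of 7 endothelial markers tested all 7 were lower, with a median log2 change of -1.25. Their summed normalized signal was 14770 to 16440 on knockout and 31702 to 44190 on wild-type arrays. Of 6 fibroblast markers 3 were lower (median -0.65, summed signal 19926 to 24282 against 29998 to 37657). Of 11 type 2 cell markers 2 were higher, Napsa and Sftpa1 (median 0.38, summed signal 350281 to 378453 against 291093 to 308990). The Sftpa1 call was lost under 6 of 16 alternatives (adjusted p up to 0.100) and the Napsa call under 1. Sftpc, Sftpd and Lyz2 of this list, Scgb1a1 and Cyp2f2 of the airway list, and Hba-a1 of the red cell list were very bright. Their signals lay near the top of the range of these arrays, whose highest signals were 71422 to 73816. Probes that bright could show little change, and they make up much of the summed signal. A dimmer tested probe of Lyz2 gave 0.53 (adjusted p = 0.0621 by limma) and did not pass, against 0.03 by the brightest. The fat cell and lipofibroblast list had 0 of 4 past the threshold (median 0.05, summed signal 2685 to 3559 against 2652 to 3347), and Plin1 was detected on 0 arrays. Of 2 macrophage markers tested 1 was higher, of 4 lymphocyte markers 1 was lower, and of 3 red cell markers 1 was lower. None of 5 type 1 cell or 4 airway markers passed by its brightest probe. Of the airway markers, 2 of the 4 were near the top of the range as above. The type 1 marker Aqp5 gave 0.77 by its brightest probe (adjusted p = 0.0597 by limma). Its other tested probe passed, higher in the knockout (1.11, adjusted p = 0.0184). By brightest probes, 3 of the 5 type 1 changes were positive and 2 negative. The part of these cell types in the changes of Pmvk, Sc5d, Elovl6, Npc2, Acsl5, Mgll, Slc27a3 and Fabp5 was not tested.

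Of the 26 members tested, 4 lie on chromosome 9, which carries Cldn18: Sc5d, Elovl5, Me1 and Scap. Sc5d was the only one of these 4 to pass, and in the RefSeq gene table of GRCm38 it lies farther from Cldn18 than the other three. Of the other members past the threshold, Pmvk and Elovl6 lie on chromosome 3.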

How the data were processed

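Whole-lung RNA (1 µg per array, per the labels) was measured on bead arrays. One deposited table holds linear bead intensity per probe, not normalized, beside a detection p-value for every array. Another deposited table holds the authors' own values, which lie in the range of log2 values. The submitters' processing notes name lumi 1.14.0 and R 2.11.1. Their medians were equal (8.65) and their exact transformation stays unknown, so they served as an alternative.

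In R 4.3.3, limma 3.58.1 (neqc) estimated background through those detection p-values, then applied an offset of 16, quantile normalization and log2. Testing was limited to probes detected on 3 or more arrays (11902 of 25697), with lmFit, eBayes and Benjamini-Hochberg adjustment over all of them, at 0.05. Detected means a detection p under 0.01. Of all probes, 23978 had 1 gene symbol, none had several and 1719 had none; symbols were updated through the RefSeq gene table of GRCm38. Where a probe lies in its transcript is unknown. Each gene was represented by its brightest tested probe, and other probes are given where they differ. Intervals are 95% and come from the same fit. The number of arrays limits the precision. The fit was tested on simulated data with independent noise for each probe. Those data held no differences in brightness between whole arrays, so that test says nothing on such differences. Figures were drawn in Python 3.11.15.

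The members and gene lists were chosen with earlier results of these data known. All members were named, with up to 4 called genes of each related list and Cldn18, Nr1h3, Abca1, Abcg1, Lpcat1 and Pparg whether changed or not. Cyp51, Ebp and the marker genes were named after their values were seen. Alternatives covered background, offset, scaling, filter, variance fit, probe choice, the replicate number and each array left out. The setting without Elovl6 was chosen after seeing the data.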

Additional observations from a re-analysis of the deposited data

Results flagged for a closer look

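Among 28 sets of 4 wild-type values examined (26 members and 2 branch means), 3 held an array far from the others, by the gap to its neighbour over the whole range. Chance flags about 1 set in 20. In Fads1, wild type 1 stood above the other three (ratio 0.915, 14.58 against 14.01 to 14.06). In Sc5d, wild type 3 stood below them (ratio 0.877, 8.53 against 8.84 to 8.89). In the mean of the sterol branch, wild type 1 stood above the others (ratio 0.830, -0.02 against -0.07 to -0.06). Without wild type 1 the Fads1 log2 change was -0.27 (adjusted p = 0.2), and without wild type 3 that of Sc5d was -0.92 (adjusted p = 0.0331).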

How the results depend on the processing

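Over 26 members and up to 16 alternatives, 378 of 413 values kept their direction and side of the threshold, 7 lost the call, 7 gained it and 21 changed sign. Elovl6 passed in all 15 alternatives that tested it, from -2.48 to -0.52. Its place in the main test came from detection in the wild type alone, and the filter on all 7 arrays removed it. Median scaling moved the median of all probes from 0.02 to -0.14 and the calls from 472 higher and 584 lower to 217 and 726. Called sterol enzymes, 2 in the main setting, were 1 with median scaling, 0 with the replicate block and 1 to 2 with an array left out (1 on leaving out knockout 2, knockout 3, wild type 2 or wild type 4, where Sc5d was lost), and 3 with probes detected on all 7 arrays, Nsdhl being added. Called fatty acid and phospholipid genes, 1 in the main setting, were 2 with no background correction, an offset of 50, the authors' values, a variance trend and robust fitting, or the mean of all probes, Elovl1 being added, and 1 with each array left out. With probes detected on all 7 arrays Elovl6 was not tested and Elovl1 passed (adjusted p = 0.0374). Calls over all probes, 1056, ran from 333 (without knockout 2) to 999 with an array left out, and were 701 on leaving out knockout 1, 513 for knockout 3 and 688 for wild type 2. The sterol median, 0.07, was -0.039 with median scaling, and 0.027 to 0.18 with an array left out. The median of the other branch was -0.15 with no filter, which adds dim probes, and -0.05 to 0.09 with an array left out. The difference between branches, 0.23, was 0.057 with no background correction, 0.12 with median scaling, 0.018 with the authors' values, -0.021 with probes detected on all 7 arrays, 0.036 without Elovl6 and 0.18 to 0.32 with an array left out; its dependence on Elovl6 follows from that gene's removal, and other causes were not tested. Signs changed for uncalled genes only. With median scaling Fdps was -0.039, Insig1 -0.088, Scd1 0.0020, Elovl5 0.077 and Fads2 -0.086. With the mean of all probes Insig1 was -0.047, Insig2 -0.059 and Nr1h3 0.12. With an array left out, the ranges that crossed 0 were -0.16 to 0.18 for Dhcr7, -0.014 to 0.29 for Insig1, -0.12 to 0.063 for Elovl5, -0.39 to 0.12 for Scap, -0.22 to 0.023 for Sqle, -0.32 to 0.037 for Scd1, -0.85 to 0.040 for Scd2 and -0.15 to 0.012 for Nr1h3. Same-numbered arrays of the 2 genotypes share only a number: their deviations from the genotype means correlated at -0.02, -0.004 and -0.14. With that number as a replicate block, 401 probes passed, 173 higher and 228 lower, the sterol median was 0.18, Dhcr7 was 0.18 and Insig1 -0.0042, and Pmvk (adjusted p = 0.0526) and Sc5d (adjusted p = 0.0952) were not past the threshold. Dim signals limit Elovl6, Fasn, Gpam, Chka, Slc27a3 and Fabp5.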
